A study of Homo sapiens with 6 samples.

Results

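The genes described are 49 listed chaperone and cochaperone genes: the HSP70, HSP110, HSP90, HSP40 (J-domain) and small heat shock protein families, the BAG proteins, the mitochondrial and cytosolic chaperonins, cochaperones of HSP90 and HSP70, and the heat shock factor genes HSF1 and HSF2 with HSBP1. They were taken by name. Each was represented by the probe set that names it alone and has the highest mean over all arrays, which gave 43 of the 49, among 19775 genes measured in the same way. HSPA1A, HSPA1B, HSPA8 and TCP1 are named only by probe sets that list other genes too and are described apart, and AHSA1 and HSF2 were not analysed here.

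The study measured 6 arrays of DLD1, an established human colorectal adenocarcinoma line whose truncated APC leaves beta-catenin signalling switched on. On 3 arrays the cells had received SAH-BCL9B at 10 µM for 12 h, and on 3 vehicle, which the labels give as DMSO, for 12 h. The sample titles number the arrays within a group and do not say whether each came from a separate culture. If they did not, the p-values do not measure the spread between cultures. SAH-BCL9B is a hydrocarbon-stapled helical peptide modelled on the part of BCL9 that binds beta-catenin, and the comparison asks how its presence changes global gene expression on Affymetrix Human U133 Plus 2.0 arrays. No arrays of a control peptide were analysed here, both groups are 1 cell line, and a single dose and time were used.

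Chaperones bind unfolded proteins and help them fold. HSP70 works in cycles driven by ATP: J-domain proteins bring substrates and trigger hydrolysis, and HSP110 and BAG proteins release the nucleotide. HSP90 finishes the folding of kinases and receptors with the help of cochaperones, and the ring-shaped CCT complex folds actin and tubulin. When unfolded proteins build up in the cytosol, HSF1 forms trimers and binds heat shock elements, repeats of the block GAA in alternating orientation, which switches on many of these genes. Tumour cells commonly depend on this system.

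Among the 43 genes the largest rises after SAH-BCL9B were those of DNAJA1 (2.03-fold) and DNAJB1 (1.77-fold), which encode J-domain partners of HSP70. Of all 43, 12 passed: 10 rose (DNAJA1, DNAJB1, HSPA4L, CHORDC1, STIP1, HSPH1, BAG3, HSBP1, DNAJB6 and HSPA4) and 2 fell (HSPA13 and TRAP1). The other 31 did not pass the test, limma with Benjamini-Hochberg adjustment over all 19775 genes at 0.05. Over all genes, 6.93% were called, 3.49% higher and 3.43% lower. The median log2 change of the 43 genes was 0.11, against 0.02 over all genes. A positive change was seen in 31 of the 43, and in 10893 of all 19775 genes. The 3 SAH-BCL9B arrays lay above the 3 vehicle arrays in 20 of the 43 genes (16.3% of all genes) and below them in 4 (12% of all genes). The counts rest on few arrays: 7 genes rose when SAH-BCL9B 2 was left out, and 3 when any other array was. Of all 19775 genes, 1370 were called with all arrays, 1426 without SAH-BCL9B 2 and 316 to 692 without any other array. DNAJA1, DNAJB1 and HSPA4L passed in each of these 6 fits. No genes fell without vehicle 1, without vehicle 2 or without SAH-BCL9B 3 (3 at an unadjusted p under 0.05 in limma, each time).

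**Figure D1:**
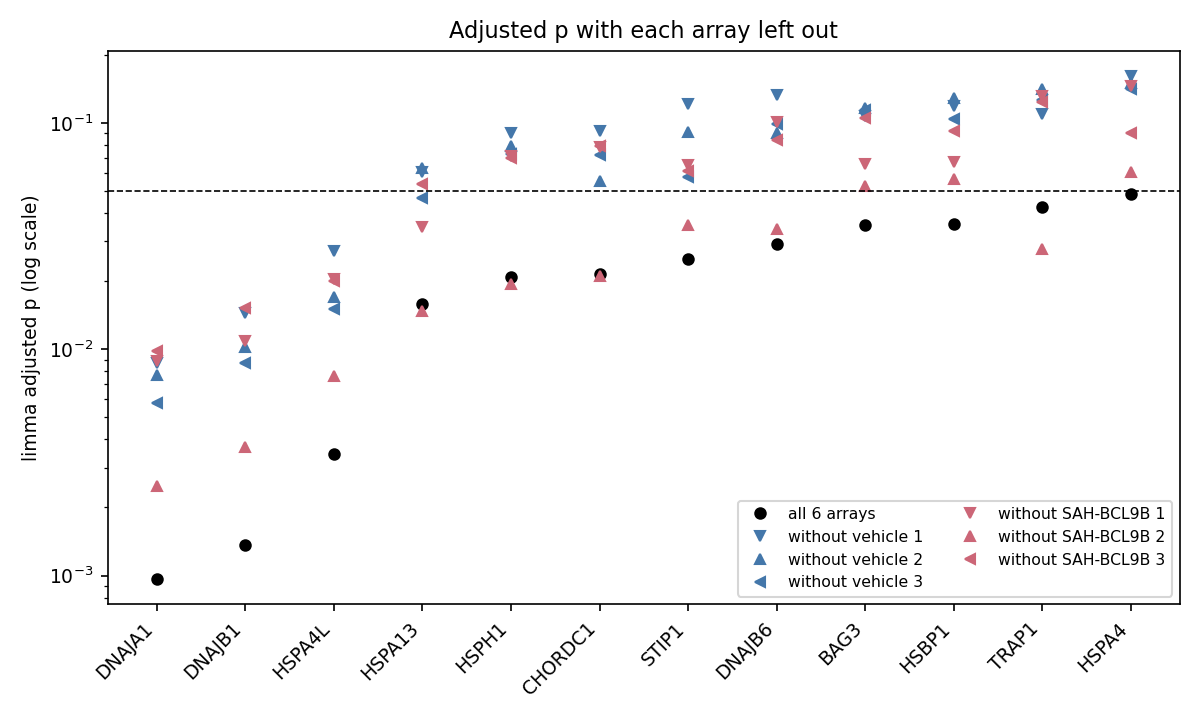
Adjusted p (log axis) of the 12 called genes with all 6 arrays (black) and with each array left out; the dashed line is 0.05. DNAJA1, DNAJB1 and HSPA4L stay below it throughout, while BAG3, HSBP1 and HSPA4 lie above it with any 1 array left out.

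The arrays were alike in distribution, with medians of 6.58 to 6.62 on the log2 scale, and the number of arrays limits the precision. SAH-BCL9B 2 stood apart, with an ACTB 3' minus 5' difference of 0.74 on the log2 scale against 1.20 to 1.38 in the other 5 arrays, and its deviations from its group mean ran with those of vehicle 3 (r = 0.42 across genes, which are not independent replicates). Without both arrays 6 genes rose and 3 fell. With the ACTB difference as a covariate 8 rose and 3 fell, and 10 of the 12 calls were shared, all but HSPA4 and HSBP1. The epithelial markers EPCAM, CDH1, KRT8, KRT18 and KRT19 had vehicle means of 13.4 to 14.9, KRT20, CDX2 and VIL1 11.2, 9.76 and 9.02, and CEACAM5 and CDX1 7.17 and 7.12, within the range of the markers of other cell types. The leukocyte marker PTPRC had 4.28, and the fibroblast markers COL3A1 and COL1A1 had 5.25 and 8.55. The 7 measured markers of other cell types had vehicle means of 4.28 to 8.55, and none passed in limma's test (0 also at an unadjusted p under 0.05). Of 10 epithelial markers KRT8 rose by 0.50 and VIL1, an enterocyte brush-border gene, fell by 0.86 on the log2 scale. In lysed cultures fewer cells of a kind and less RNA per cell cannot be told apart.

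Heat shock elements are shown here because many chaperone genes are known HSF1 targets. RefSeq promoter windows (GRCh38.p14, 250 bases before to 50 after each annotated start) were found for 44 of the 49 genes. They were searched for 3 alternating blocks, GAANNTTCNNGAA or its reverse complement TTCNNGAANNTTC, which can overlap each other, and overlapping matches were joined. Such an element stood in the windows of 7 of the 44 genes, CHORDC1, DNAJA1, DNAJB6, HSPA8, HSP90AA1, HSP90AB1 and HSPD1 (11.3% of their 62 windows), against 0.49% of all 35116 windows. By gene this was 15.9% of 44 against 0.608% of 27305, and 2 adjoining blocks (GAANNTTC or TTCNNGAA, which every 3-block element holds) were in 47.7% against 16.2%. In the stretches below, each 5′ to 3′ on the gene's strand, the element is in capitals. Positions count from 1 at the annotated start, and the base before it is -1. CHORDC1, DNAJB6 and DNAJA1 rose. HSPA8 and HSP90AA1 were added after their values were seen, HSPA8 for its shared probe sets and HSP90AA1 as a gene with an element that did not pass.
CHORDC1, chr11:90223050-90223169, minus strand, -120 to -1: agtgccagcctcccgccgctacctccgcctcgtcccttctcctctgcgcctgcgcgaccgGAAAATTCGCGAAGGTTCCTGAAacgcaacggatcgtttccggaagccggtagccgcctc
DNAJB6, chr7:157336834-157336953, plus strand, -170 to -51: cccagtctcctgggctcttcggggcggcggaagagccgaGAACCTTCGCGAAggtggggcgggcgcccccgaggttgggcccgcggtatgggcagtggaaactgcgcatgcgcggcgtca
DNAJA1, chr9:33025169-33025288, plus strand, -104 to 16: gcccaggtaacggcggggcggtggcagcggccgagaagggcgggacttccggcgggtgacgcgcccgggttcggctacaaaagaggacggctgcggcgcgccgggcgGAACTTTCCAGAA
HSPA8, chr11:123062137-123062386, minus strand, -250 to -1: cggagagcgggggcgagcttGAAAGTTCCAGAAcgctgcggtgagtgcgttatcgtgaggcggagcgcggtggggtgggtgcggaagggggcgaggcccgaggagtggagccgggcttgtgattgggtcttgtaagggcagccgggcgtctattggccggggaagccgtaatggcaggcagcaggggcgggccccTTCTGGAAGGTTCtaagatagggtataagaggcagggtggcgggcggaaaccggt
HSP90AA1, chr14:102087045-102087164, minus strand, -120 to -1: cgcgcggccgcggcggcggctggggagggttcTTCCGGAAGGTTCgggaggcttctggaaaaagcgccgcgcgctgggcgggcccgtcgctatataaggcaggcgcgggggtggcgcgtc

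The element of CHORDC1 runs from -60 to -38 and joins 3 overlapping matches, and that of DNAJB6 from -131 to -119. In DNAJA1 it lies from 4 to 16, just inside the transcript, and HSPA8 has an element from -230 to -218 and another from -55 to -43. Of the genes with a window and a value of their own, 3 of the 10 that rose, 0 of the 2 that fell and 3 of the 26 that did not pass had an element. A match of these letters is a description and not a shown binding site, and a window without a match says only that these letters are not in it.

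The highest changes on any probe set of these genes came from the stress-inducible HSP70 pair HSPA1A and HSPA1B, whose near-identical transcripts the array does not tell apart. Probe set 202581_at, annotated to both, measured 10.86, 10.92 and 10.77 in the vehicle arrays and 12.27, 12.23 and 12.62 in the SAH-BCL9B arrays. Probe set 200800_s_at, annotated to both and to HSPA1L, measured 10.45, 10.24 and 10.34 against 11.92, 11.95 and 12.00. The groups were far apart on both. The change was 1.53 ± 0.12 (SE, 2.88-fold) for the first and 1.61 ± 0.09 (3.06-fold) for the second, with limma adjusted p = 0.00384 and 0.00125 in a fit over all 54613 non-control probe sets, of which 1.12% were called higher and 1.37% lower. Both passed in each of the 13 alternatives run for them (highest adjusted p = 0.034 and 0.023). A dimmer probe set annotated to the pair, 200799_at, measured 6.18, 6.78 and 6.18 against 7.03, 6.55 and 7.01, so its groups overlapped and it did not pass (0.48 ± 0.20, adjusted p = 0.303). None of these values can be assigned to HSPA1A or HSPA1B alone.

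HSPA8 encodes the constitutive cytosolic HSP70, HSC70, and its 4 probe sets also list SNORD14C and SNORD14D, small nucleolar RNA genes. On 210338_s_at the values were 13.94, 13.99 and 13.96 in vehicle and 14.62, 14.60 and 14.59 in SAH-BCL9B. The groups did not overlap on any of the 4. The changes were 0.64, 0.57, 0.54 and 0.43, and the first 3 passed (limma adjusted p = 0.0116, 0.0221 and 0.0237) while 221891_x_at did not (0.0837). The fit without SAH-BCL9B 2 kept these 3 calls, the fit without vehicle 3 kept that of 210338_s_at, and with each other array left out none of the 4 passed (highest adjusted p = 0.25).

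**Figure D2:**
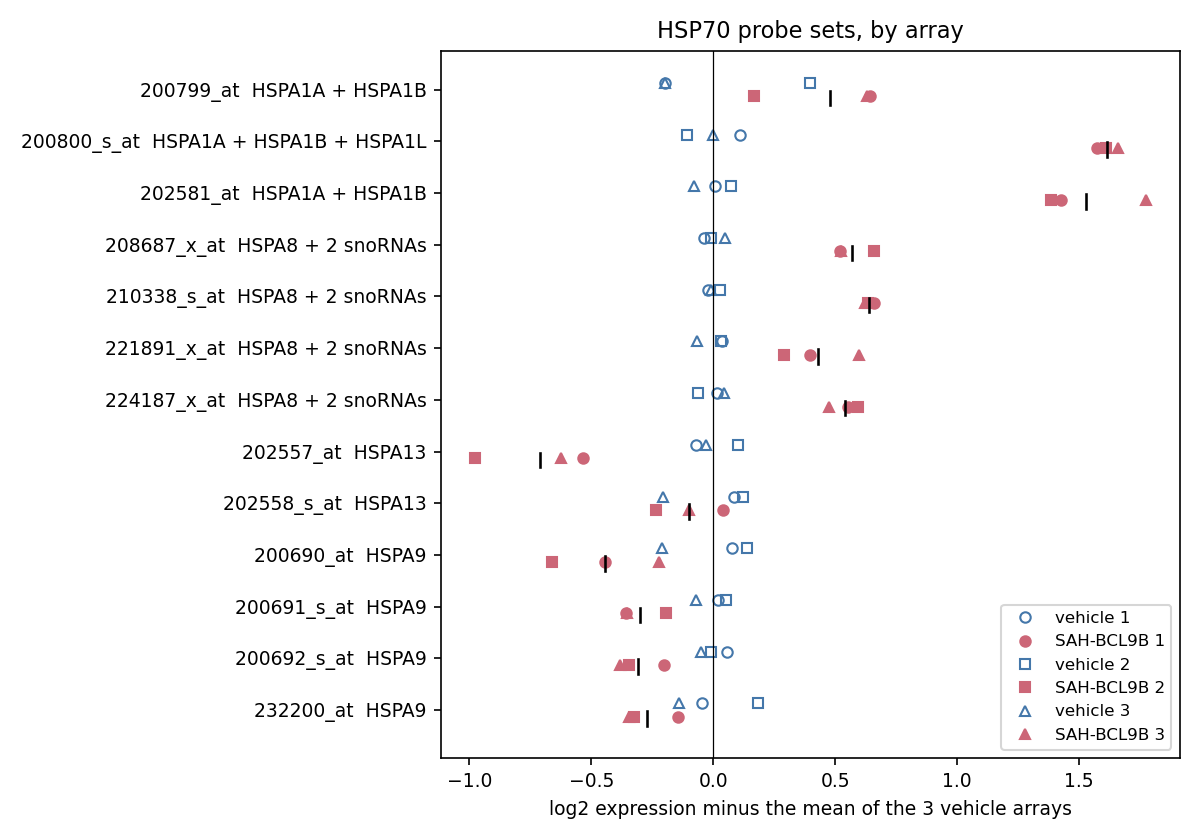
Log2 expression minus the mean of the 3 vehicle arrays on each probe set annotated to the HSP70 genes HSPA1A, HSPA1B, HSPA8, HSPA13 and HSPA9; open blue symbols are vehicle arrays, filled red symbols SAH-BCL9B arrays and black bars their mean. The probe sets shared by HSPA1A and HSPA1B reach 1.53 and 1.61, those of HSPA8 lie to the right of 0, and those of HSPA9 and HSPA13 have means to the left.

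The other HSP70 genes, each with a probe set of its own, did not rise: 0 of 4 were called higher (0 at an unadjusted p under 0.05 as well) and 1 was lower. The shares over all genes were 3.49% higher and 3.43% lower. HSPA13, a microsomal HSP70 relative, measured 11.60, 11.78 and 11.65 in vehicle and 11.14, 10.70 and 11.05 in SAH-BCL9B, lower in all 3. It fell by 0.71 ± 0.12 on the log2 scale (SE, limma adjusted p = 0.0159). Its other probe set gave -0.10, and with the mean of both the change was -0.41 and missed the threshold (adjusted p = 0.077). It also missed it without vehicle 1, vehicle 2 or SAH-BCL9B 3 (highest adjusted p = 0.063). HSPA9 encodes mortalin, the HSP70 of the mitochondrial matrix, and measured 13.51, 13.54 and 13.42 against 13.13, 13.29 and 13.13. All 4 of its probe sets had a negative change with no overlap of the groups, from -0.44 to -0.27. The change of -0.30 ± 0.08 did not pass (adjusted p = 0.0731), though it did in 7 of 17 alternatives, among them the fit without SAH-BCL9B 2 (range 0.0054 to 0.24). HSPA2 and HSPA14 had changes of 0.09 and 0.01. The other 2 probe sets of HSPA14 gave 0.23 and 0.20 without overlap, and neither passed (limma adjusted p = 0.273 and 0.321 over all probe sets).

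All 3 HSP110 genes, which encode nucleotide exchange factors of HSP70, rose. HSPA4L measured 9.09, 9.15 and 9.05 in vehicle and 9.86, 9.79 and 9.73 in SAH-BCL9B. HSPH1, which encodes HSP105, measured 12.91, 12.89 and 12.84 against 13.30, 13.21 and 13.41. HSPA4, which encodes APG-2, measured 12.36, 12.33 and 12.30 against 12.69, 12.61 and 12.59. In each gene the lowest SAH-BCL9B array lay above the highest vehicle array. The changes were 0.70 ± 0.08, 0.43 ± 0.08 and 0.30 ± 0.07 (SE), with limma adjusted p = 0.00344, 0.0209 and 0.0486. HSPA4L passed with any 1 array left out (highest adjusted p = 0.027). HSPH1 passed only without SAH-BCL9B 2 (highest 0.09), and HSPA4 in none of the 6 (0.06 to 0.16). Of the 4 probe sets of HSPA4 1 went the opposite way (-0.40), and their mean gave 0.15 (adjusted p = 0.45).

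The BAG proteins are the other exchange factors, and 1 of the 4 rose. BAG3, which links HSP70 to selective autophagy and is a known HSF1 target, measured 12.00, 11.94 and 11.88 in vehicle and 12.22, 12.30 and 12.40 in SAH-BCL9B. The groups were apart, with a change of 0.37 ± 0.08 (SE, limma adjusted p = 0.0354), but it missed the threshold with any 1 array left out (0.052 to 0.12) and has a single probe set. BAG1, BAG2 and BAG5 had changes of 0.09, 0.15 and 0.07, and on the first 2 the groups did not overlap. Of the 3 probe sets of BAG1 and of BAG2, 1 each went the opposite way (-0.23 and -0.07), with overlapping groups.

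Of 10 J-domain genes 3 rose, 0 fell (1 at an unadjusted p under 0.05, DNAJC7) and 7 did not pass in limma's test. DNAJA1, which encodes a class A partner of cytosolic HSP70, had the largest change of the 43 genes. It measured 11.76, 11.71 and 11.73 in vehicle and 12.76, 12.83 and 12.66 in SAH-BCL9B, a rise of 1.02 ± 0.08 (SE, 2.03-fold, limma adjusted p = 0.000963). Its other probe set gave 0.72. DNAJB1, the main inducible class B partner, measured 10.74, 10.76 and 10.75 against 11.56, 11.62 and 11.54, a rise of 0.82 ± 0.07 (1.77-fold, adjusted p = 0.00137), and its other probe set gave 0.74. These are large separations beside SDs of 0.03 and 0.01 in vehicle and 0.09 and 0.04 in SAH-BCL9B. Both genes passed in all 17 alternatives (highest adjusted p = 0.02 and 0.025). DNAJB6, which suppresses aggregation, measured 9.88, 9.92 and 9.85 against 10.27, 10.18 and 10.23, with no overlap. It rose by 0.34 ± 0.07 (adjusted p = 0.0291) and passed with 1 array left out only when that was SAH-BCL9B 2 (highest 0.13). Probe sets 208810_at and 208811_s_at, which list DNAJB6 with TMEM135, gave 0.18 and 0.22 with overlapping groups. Neither passed (limma adjusted p = 0.727 and 0.383 over all probe sets).

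Of the other 7 J-domain genes 3 were higher at an unadjusted p under 0.05 in limma's fit without passing, DNAJB4, DNAJA2 and DNAJB2. DNAJB4 had 0.38 ± 0.13 (SE) and overlapping groups, DNAJA2 0.26 ± 0.08 and DNAJB2 0.25 ± 0.11, the last 2 without overlap (limma adjusted p = 0.15, 0.0992 and 0.225). DNAJA2 passed in 2 of 17 alternatives and DNAJB4 in 1 (adjusted p from 0.016 to 0.79 and from 0.041 to 0.37). The 2 probe sets of DNAJA2 had opposite signs. The other probe set of DNAJB4 gave 0.48 without overlap and did not pass (limma adjusted p = 0.14 over all probe sets). DNAJA4, a close relative of DNAJA1, measured 8.06, 8.11 and 8.23 against 8.18, 8.19 and 7.96, a difference of -0.03 ± 0.09. DNAJB5, DNAJA3 of the mitochondria, and DNAJC7, a cochaperone that also has TPR repeats, had -0.15, -0.03 and -0.19.

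**Figure D3:**
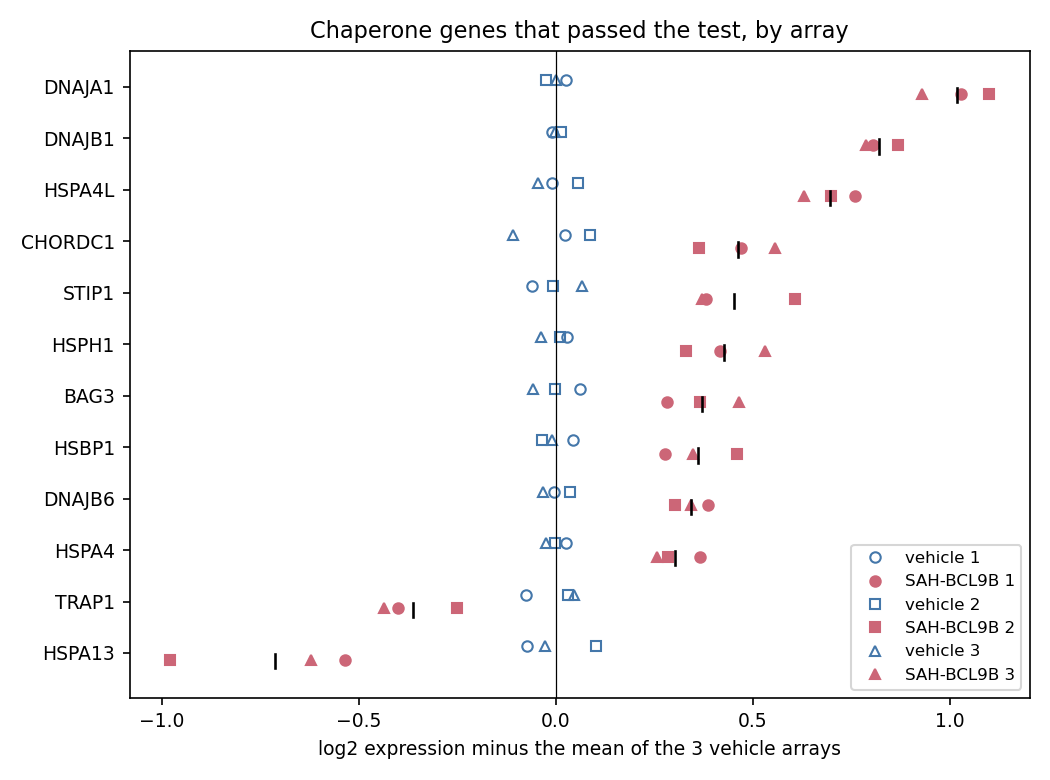
Log2 expression minus the mean of the 3 vehicle arrays for the 12 genes that passed the test; open blue symbols are vehicle arrays, filled red symbols SAH-BCL9B arrays and black bars their mean. In all 12 the 2 groups are separate, from DNAJA1 at 1.02 to HSPA13 at -0.71, and SAH-BCL9B 2 (square) is the lowest array for HSPA13.

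The HSP90 genes of the cytosol had small differences. HSP90AA1, the inducible form, measured 14.99, 14.99 and 14.91 in vehicle and 15.10, 14.99 and 15.17 in SAH-BCL9B. HSP90AB1, the constitutive form, measured 14.34, 14.35 and 14.35 against 14.37, 14.31 and 14.35. The groups overlapped in both, and the changes were 0.12 ± 0.08 and -0.001 ± 0.07 (SE, limma adjusted p = 0.467 and 0.996). Their levels lie near the top of the arrays, whose highest values were 15.7 to 15.8. All 4 probe sets of HSP90AA1 had a positive change, from 0.04 to 0.19. On 210211_s_at, with 0.19, the groups did not overlap, but it did not pass (limma adjusted p = 0.355 over all probe sets). The other probe sets of HSP90AB1 gave 0.21 and 0.08, opposite in sign to the chosen one, with overlapping groups. TRAP1, the mitochondrial HSP90, measured 11.50, 11.61 and 11.62 against 11.18, 11.32 and 11.14, lower in all 3. It fell by 0.36 ± 0.08 (adjusted p = 0.0423) and passed with 1 array left out only when that was SAH-BCL9B 2 (highest 0.14). Its other probe set, at a level of 3.55 to 4.07, gave -0.002, and the mean of both -0.18 (adjusted p = 0.36).

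Of 6 measured cochaperones of HSP90 and HSP70 2 rose, 0 fell (0 at an unadjusted p under 0.05) and all 6 had a positive change in limma's fit (median 0.26). CHORDC1, which encodes the HSP90 partner morgana, measured 10.92, 10.98 and 10.79 in vehicle and 11.37, 11.26 and 11.45 in SAH-BCL9B. STIP1 encodes HOP, the adaptor that passes substrates from HSP70 to HSP90, and measured 11.44, 11.49 and 11.56 against 11.88, 12.10 and 11.87. Neither overlapped, and the changes were 0.46 ± 0.09 and 0.45 ± 0.09 (SE, limma adjusted p = 0.0214 and 0.0251). Both passed with 1 array left out only when that was SAH-BCL9B 2 (highest 0.092 and 0.12). With the mean of its probe sets CHORDC1 gave 0.28 and missed the threshold (adjusted p = 0.11).

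The remaining cochaperones had smaller values. FKBP4, the immunophilin FKBP52, had 0.30 ± 0.09 (SE) and CDC37, which brings kinases to HSP90, 0.22 ± 0.09, both without overlap (limma adjusted p = 0.091 and 0.222). FKBP4 passed in 3 of 17 alternatives (range 0.026 to 0.48). The ubiquitin ligase gene STUB1 (CHIP) had 0.12 and PTGES3, which encodes p23, 0.08.

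The small heat shock proteins, which hold unfolded proteins without ATP, did not pass: 0 of 3 in limma's test and 0 at an unadjusted p under 0.05. The share called over all genes was 6.93%. HSPB1, which encodes HSP27, measured 13.20, 13.13 and 13.21 in vehicle and 13.36, 13.40 and 13.13 in SAH-BCL9B. SAH-BCL9B 3 lay at the level of the vehicle arrays, and the change was 0.12 ± 0.09 (SE, adjusted p = 0.549). HSPB8, a partner of BAG3, had 0.05 ± 0.09. CRYAB, which encodes alphaB-crystallin, measured 5.22 to 6.05 over all 6 arrays, below the array medians, with -0.06 ± 0.23, so its change is poorly measured.

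None of the 5 mitochondrial members was called higher. As 3.49% of all genes were called higher and 3.43% lower, 0 of 5 is near that share. HSPD1 and HSPE1 encode HSP60 and its lid HSP10, which lie head to head in the genome. HSPD1 measured 14.94, 14.93 and 14.90 in vehicle and 14.94, 14.87 and 14.93 in SAH-BCL9B, while HSPE1 measured 12.94, 12.86 and 12.75 against 12.97, 13.09 and 13.18. The first groups overlapped and the second did not, but neither gene passed (-0.01 ± 0.07 and 0.23 ± 0.09, SE, limma adjusted p = 0.976 and 0.19). Of the 5 mitochondrial genes, these with HSPA9, TRAP1 and DNAJA3, 1 fell, 0 rose (1 at an unadjusted p under 0.05, HSPE1) and the median was -0.03. Of the other 38 genes, 10 rose and 1 fell, with a median of 0.12. The difference between these lists was not tested.

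Of the CCT chaperonin, with TCP1 as its first subunit, none of 6 measured subunits passed in limma's test (0 at an unadjusted p under 0.05), and the changes ran from -0.11 for CCT5 to 0.13 for CCT3, with a median of 0.03. The share called over all genes was 6.93%. CCT2, CCT4, CCT7 and CCT8 had 0.11, 0.02, 0.05 and -0.02. In CCT2 and CCT3 the groups did not overlap, with the SAH-BCL9B arrays above. CCT5 depends on the probe set in size: its dimmer one measured 9.06, 8.82 and 8.53 in vehicle and 8.30, 8.22 and 8.33 in SAH-BCL9B, with no overlap (-0.52), and the mean of both gave -0.32 (limma adjusted p = 0.077). The second probe sets of CCT2 and CCT4 gave 0.25 and 0.27, also without overlap. The 3 probe sets that list TCP1 with SNORA29 had 0.16, 0.09 and 0.14, and none passed.

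HSF1, which encodes the main regulator of the heat shock response, did not pass. It measured 8.48, 8.52 and 8.55 in vehicle and 8.61, 8.71 and 8.47 in SAH-BCL9B, with overlapping groups and a change of 0.08 ± 0.09 (SE, limma adjusted p = 0.689). HSF1 is known to be controlled mainly as a protein, which these arrays do not measure. HSBP1, whose product binds and restrains HSF1, measured 12.05, 11.97 and 11.99 against 12.28, 12.46 and 12.35, with no overlap, and rose by 0.36 ± 0.08 (adjusted p = 0.0357). Its other probe set measured 11.36, 11.52 and 11.41 against 11.06, 11.35 and 11.28, the opposite way, with no overlap either (-0.21). The mean of both was 0.08 (adjusted p = 0.72), and the call was lost with any 1 array left out (0.057 to 0.13), so the direction of HSBP1 depends on the probe set.

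**Figure D4:**
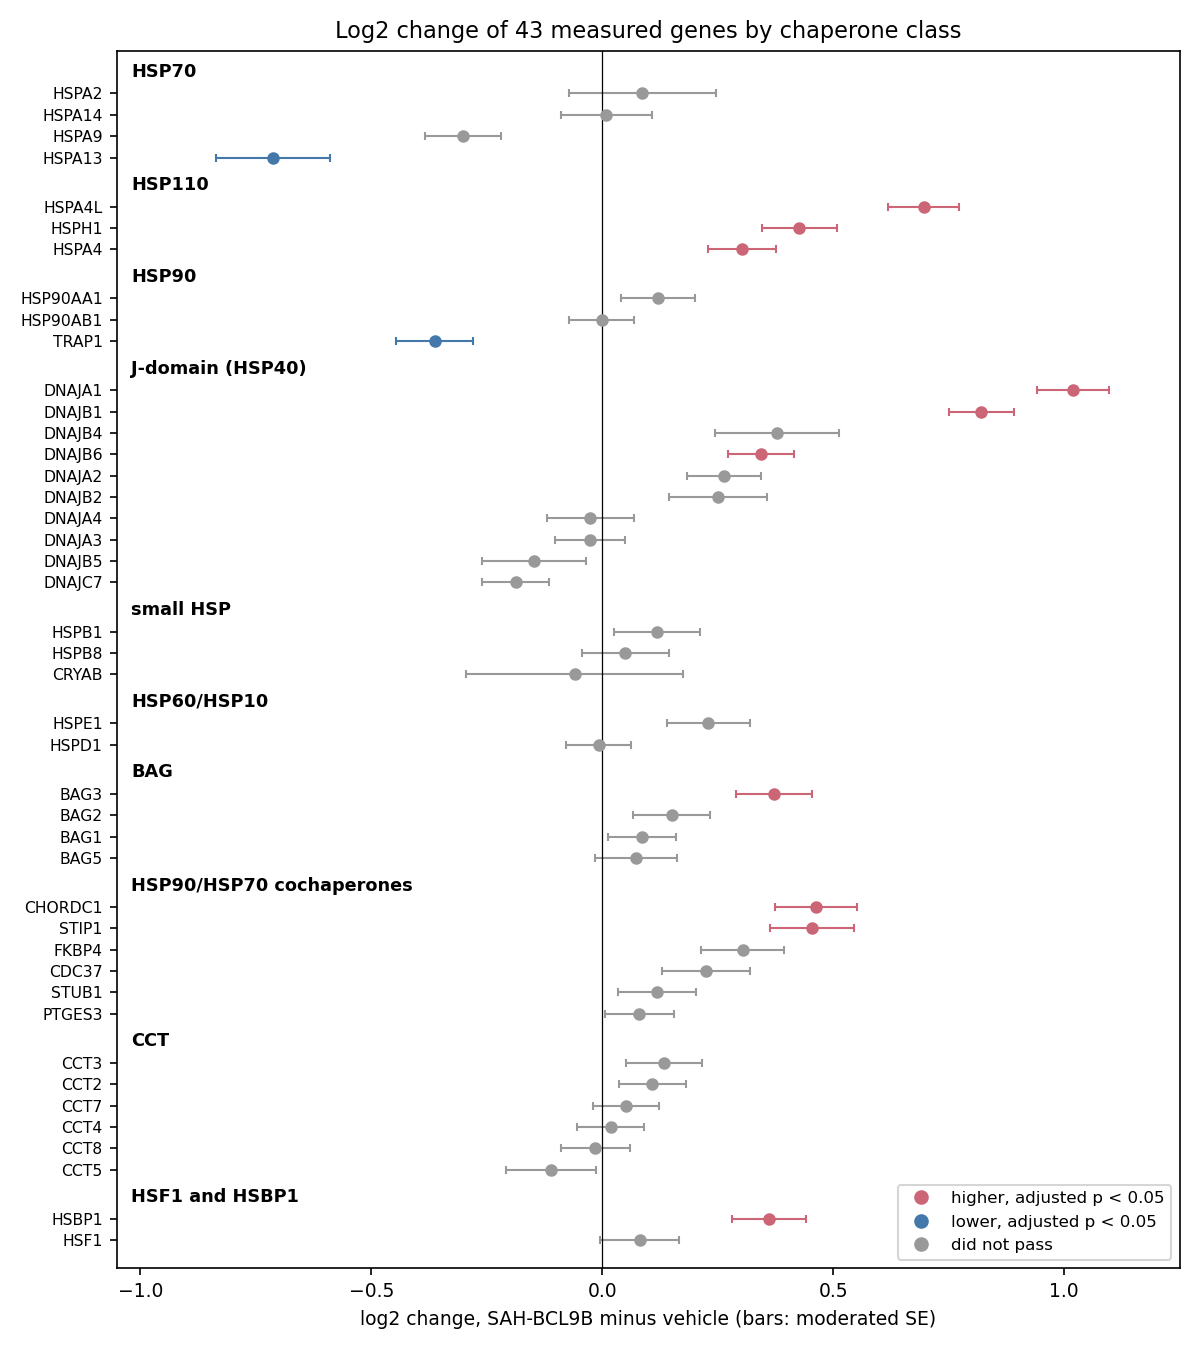
Log2 change (SAH-BCL9B minus vehicle) of the 43 measured genes by chaperone class, with limma's moderated SE as bars; red genes were called higher, blue lower and grey ones did not pass. All 3 HSP110 genes lie to the right with 0.30 to 0.70, the 6 CCT genes lie between -0.11 and 0.13, and TRAP1 and HSPA13 are the 2 called lower.

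The calls were then read by whether textbooks give the gene as heat-inducible. Of 14 measured heat-inducible genes 7 rose, 0 fell (0 at an unadjusted p under 0.05) and the median change was 0.34, and of the other 29 genes 3 rose (HSPA4, DNAJB6 and HSBP1), 2 fell and the median was 0.08. Over all genes 3.49% were called higher. The heat-inducible genes that did not pass were HSP90AA1, DNAJA4, HSPB1, CRYAB, HSPD1, HSPE1 and FKBP4. This list was chosen with earlier results of these arrays known, and 3 of its 17 genes, HSPA1A, HSPA1B and AHSA1, had no probe set of their own.

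Genes of the same pathways outside the list were counted in the same way. Over all genes 6.93% were called, 3.49% higher and 3.43% lower. Of 28 other HSP70 system genes 1 rose, HSPA12A, a distant HSP70 relative that measured 6.87, 7.24 and 6.76 in vehicle and 7.67, 7.67 and 7.57 in SAH-BCL9B (0.68 ± 0.13, SE, limma adjusted p = 0.0193), and of 13 other HSP90 cochaperones 1 rose, TOMM34, a TPR protein of mitochondrial import that binds HSP70 and HSP90 (0.37 ± 0.07, adjusted p = 0.024). Of 13 other mitochondrial protein quality genes 2 fell: GRPEL2, an exchange factor of mortalin (-0.60 ± 0.11, adjusted p = 0.0197), and the matrix protease gene LONP1 (-0.43 ± 0.09, adjusted p = 0.0271). Of 7 measured prefoldin and related genes CCT6B fell (-0.37 ± 0.08, adjusted p = 0.0257), with means of 7.26 in vehicle and 6.88 in SAH-BCL9B. The brighter CCT6A, with means of 12.99 and 13.16, went the other way without overlap and did not pass (0.17 ± 0.09, adjusted p = 0.294). None of 9 other HSF1-linked genes passed (0 at an unadjusted p under 0.05).

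No gene of the neighbouring systems passed. As 6.93% of all genes were called, 0 calls in lists this short is not far from that share. Of 15 endoplasmic reticulum chaperone genes 0 passed in limma's test (4 at an unadjusted p under 0.05, all higher), with a median of 0.11. Of 27 proteasome subunit genes 0 passed (5 at an unadjusted p under 0.05, all higher), with a median of 0.11 as well, and 24 had a positive change. Over all 19775 genes 10893 had a positive change. The median of the 43 chaperone genes was also 0.11, but their highest change was 1.02, against 0.30 and 0.29 in these lists. The SAH-BCL9B arrays lay above the vehicle arrays in 6 of the 15 and 12 of the 27 genes, and below them in 1 and 0. In the chaperone list they lay above in 20 of 43 and below in 4, and over all genes in 16.3% and 12%. For the 13 other HSP90 cochaperones it was 6 and 1, and for the 28 other HSP70 system genes 5 and 3. Differences between lists were not tested.

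**Figure D5:**
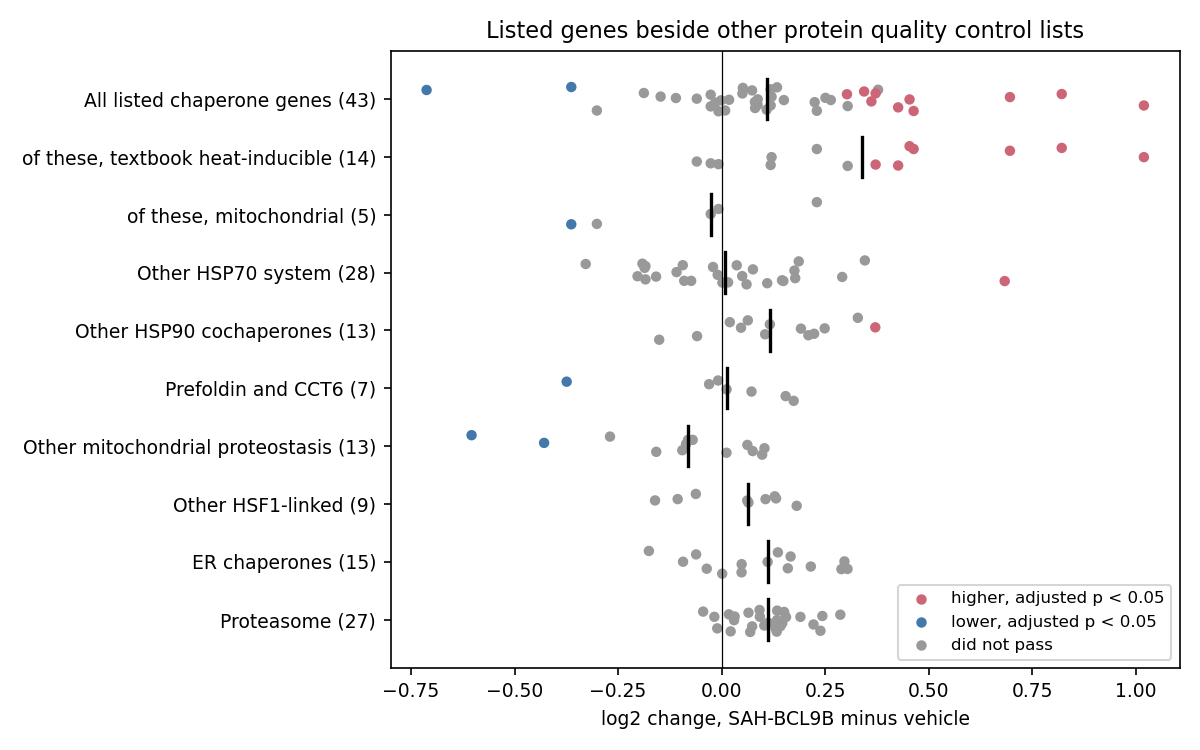
Log2 change of each measured gene in the chaperone list, in its heat-inducible and mitochondrial members, and in other lists of protein quality control genes; black bars are medians, red points were called higher and blue lower, and the number of genes is in brackets. The medians of the chaperone, endoplasmic reticulum and proteasome lists all lie at 0.11, and points beyond 0.5 to the right occur in the chaperone list and in the other HSP70 system list.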

How the data were processed

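The authors deposited log2 expression values of 54675 probe sets for each of 6 arrays. RMA and affy are named in the submitters' processing notes, and their versions are not given in the sources used. RMA removes background, makes the arrays' distributions equal and combines probes, which hides any change common to most genes and understates changes of dim probe sets. Signal over background is unknown. GEO's platform annotation gave 41091 probe sets with 1 gene, 1801 with several and 11721 with none, beside 62 controls. Symbols were checked by Entrez ID against RefSeq (GRCh38.p14) and 0 needed an update. No filter on low values was set.

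Groups were compared by lmFit and eBayes of limma 3.58.1, without covariates, under R 4.3.3. The fit's prior had 3.94 degrees of freedom, and p-values were adjusted by Benjamini-Hochberg over 19775 genes. Errors are moderated SEs. Probe sets listing several genes were tested over all 54613 non-control probe sets, an alternative added after seeing the data. The procedure was tested on simulated data of 19775 genes, 100 of them changed. It recovered 38 at a log2 change of 0.5 and 81 at a log2 change of 1, with 2 false calls each time. In the real data 1370 genes were called, and the adjustment depends on how many genes change. These figures therefore do not give the power or error rate of the real comparison. The genes, lists and settings were chosen with earlier results of these data known. Named genes are every listed gene, in other lists of pathway genes at most 3 past the threshold, and cell type markers whatever their result. CCT6A was added beside CCT6B after the values were seen. The R package data.table was used at version 1.17.8, and figures come from matplotlib 3.10.9 under Python 3.11.15.

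Same-numbered arrays did not deviate together (r across genes 0.24, -0.20 and -0.32), so the numbers were not taken as pairs. The alternatives were a block for the replicate number, a filter on low values, other uses of several probe sets, scaling, the variance model, array weights, covariates for the array SD and the ACTB 3' minus 5' difference, and arrays left out.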

Additional observations from a re-analysis of the deposited data

How the results depend on the processing

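The count of 10 genes that rose and 2 that fell was 12 and 3 with a filter on low values and with the array SD as a covariate, 10 and 2 with median centring, 7 and 2 with a second quantile normalization (HSPA4, BAG3 and HSBP1 missed the threshold), 13 and 3 with a variance trend, 10 and 3 with array weights and 8 and 3 with the ACTB covariate. It was 6 and 0 when a gene's probe sets were averaged (limma, 3 lower at an unadjusted p under 0.05), 6 and 1 with the same probe sets adjusted over all probe sets that name a single gene, and 6 and 3 without vehicle 3 and SAH-BCL9B 2. With each array left out in turn, 3 to 7 rose and 0 to 3 fell (3 to 5 lower at an unadjusted p under 0.05), and each such fit has fewer samples. The median change of the 43 genes, 0.11, ran from 0.07 to 0.13 over these fits and was 0.06 with the ACTB covariate. With the replicate number as a block, 3 rose and 0 fell (14 and 3 at an unadjusted p under 0.05). The 3 were DNAJA1, DNAJB1 and HSPA4L, and that fit called 296 of all 19775 genes. Same-numbered arrays share only a number here, and not every array correlated best with its own. No called gene changed direction in these alternatives, which do not put another probe set in place of the chosen one; HSBP1 and HSPA4 each have a probe set of opposite sign. Calls over all 19775 genes varied too. They numbered 1370 in the main fit, 1340 with median centring, 1372 with a second quantile normalization and 2456 with a variance trend. Array weights gave 2172, the array SD covariate 2441 and the ACTB covariate 1487. Averaged probe sets gave 977 and adjustment over all single-gene probe sets 918. With the filter 2272 of 12268 genes passed. Without vehicle 3 and SAH-BCL9B 2 there were 1194. Leaving out 1 array gave 316 to 1426. The cause of lost calls was not tested. With 3 arrays a group, a gene with no call may still differ.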
